A study of Mus musculus with 12 samples.

Results

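The 10 genes described here are markers of the ciliated cells of the airway: Foxj1, Tekt1, Tekt4, Rsph1, Dnali1, Dynlrb2, Tppp3, Dnah5, Ccdc113 and Dnaic1. They were taken by name from the platform annotation, with the probe set of the highest mean standing for each gene, and they are 10 of the 18194 genes with a probe set of their own on the array. All 10 lay above a filter on low values that left 11606 genes for testing. The list was selected on the log2 intensities of these same arrays, which an earlier look had shown to vary together, so the levels are given as a description.

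Lung RNA was hybridised to 12 Affymetrix mouse arrays, 3 for each of 4 groups of wild-type mice, in a study of whether simvastatin, a cholesterol-lowering drug, limits lung injury by radiation. The combined group (SIMVA-Radiation in the labels) received 1 exposure to 25 Gy and 10 mg/kg simvastatin, injected into the peritoneum 3 times a week for at most 6 weeks, and its lungs were taken 6 weeks after the exposure. The radiation group received 25 Gy without the drug and was sampled at the same 6 weeks, and the simvastatin group (SIMVA in the labels) received the same injections without radiation. The control group received vehicle. All 12 samples carry 1 description, which calls the tissue control tissue, and the SIMVA protocol times its injections around an irradiation, so groups were taken from the titles. Controls were 8 to 10 weeks old and the mice of the other 3 groups 8 to 12 weeks old, so in every comparison with control age and treatment cannot be told apart. The strain is not given in the sources used here, and the labels do not state whether each array is a separate animal, so p-values measure only the spread between these arrays, which may be technical.

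Motile cilia beat on the ciliated cells of the trachea and bronchi and carry mucus and inhaled particles out of the lung. Each cilium holds an axoneme, a ring of doublet microtubules around a central pair, in which dynein arms slide the doublets, radial spokes relay signals from the central pair, and lumenal filaments stiffen the doublets. The transcription factor Foxj1 switches on the genes of this machinery together with factors of the Rfx family, which bind a palindromic sequence called the X-box. Alveoli carry no motile cilia, so in a whole lung these genes serve as markers of the conducting airway in the piece of tissue taken. Tppp3 is also known from other cells.

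Promoter windows, 250 bases before to 50 bases after the start of a gene, were available from RefSeq (GRCm38.p6) for 7 of the 10 genes, with none for Foxj1, Rsph1 and Tppp3. The core letters of the X-box arm, GTTGCC on either strand, occurred in 4 of these 7, against 12.5% of all 32851 windows and 14.1% of the 27025 genes they belong to. The promoters of Tekt1, Dynlrb2 and Ccdc113 are shown because they hold these letters before the start of the gene, and the capitals mark GTTGCC or its reverse complement GGCAAC. Each runs 5′ to 3′ along the gene's strand over the last 120 bases before its start, at chr11:72361883-72362002 (minus strand) for Tekt1, chr8:116504895-116505014 (plus strand) for Dynlrb2 and chr8:95533980-95534099 (plus strand) for Ccdc113.
Tekt1: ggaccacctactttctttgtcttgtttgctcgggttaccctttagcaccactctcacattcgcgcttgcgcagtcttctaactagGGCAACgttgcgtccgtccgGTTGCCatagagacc
Dynlrb2: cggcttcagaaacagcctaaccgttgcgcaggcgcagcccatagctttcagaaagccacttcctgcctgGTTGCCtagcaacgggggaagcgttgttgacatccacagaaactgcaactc
Ccdc113: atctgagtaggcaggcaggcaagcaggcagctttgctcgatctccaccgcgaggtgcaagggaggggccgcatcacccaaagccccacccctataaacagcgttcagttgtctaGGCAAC

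Tekt1 held the letters at 2 places, on opposite strands, with first bases 35 and 15 bases before its start, and Dynlrb2 and Ccdc113 held them once each. In Tekt4 the match lay just after the start and was part of a full X-box (GTTNCC and GNAAC with NNN between them), which occurred in 1 of 7 windows of these genes and in 0.804% of all windows. The looser form with GTNNCC and GNNAC around NNN, which includes every match of the full one, occurred in 2 of 7 and in 4.62% of all windows. The forkhead core TGTTTAC occurred in 0 of 7 (3.65% of all windows), TGTTTGT in 0 of 7 (6.61%), and TGTTTA, which includes every TGTTTAC, in 2 of 7 (13.4%). In the 126 genes with a window among 148 other cilia genes listed for this work, GTTGCC occurred in 59 (46.8%) and the full X-box in 12 (9.52%). These 6 motifs were searched on both strands, and both the motifs and the windows to print were settled after matches had been seen. A match is a description of the letters in a window and not a binding site.

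Several arrays stood apart before any comparison. Combined 3, simvastatin 1 and simvastatin 3 were near-identical, with log2 differences that had an SD of 0.111 to 0.118, while the 63 other pairs of arrays had 0.336 or more (probe sets averaging over 9). Simvastatin 1 and 3 were averaged to 1 sample (n = 2 for that group). For the 10 genes, the group mean, the median differences and the pair correlations that include combined 3 are also given without it. So are the counts above 0 and the likeness medians of the other cilia genes. Other summaries, such as slopes, shares of variance, counts at an unadjusted p and the 10 most alike genes, are given only with combined 3. Cdkn1a, the p21 gene that p53 induces after DNA damage, went against the label on 3 arrays, at 11.18 on combined 3, 13.36 on simvastatin 2 and 13.01 on control 3. On the other 9 arrays it read 13.12 to 13.42 in combined and radiation lungs and 10.25 to 11.11 in simvastatin and control lungs. Control 1 carried thymocyte genes (3 of 8 listed genes tested) at 6.06 log2 units above the mean of all samples. Combined 1 carried them at 2.37, and the other arrays lay between -1.29 and -0.12. All values are log2 intensities as deposited.

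Foxj1 (Entrez gene 15223), the transcription factor that drives the motile cilium programme, read 9.82, 9.21 and 10.01 on combined 1 to 3, 9.33, 9.49 and 9.75 on radiation 1 to 3, and 9.80, 8.67 and 9.68 on simvastatin 1 to 3, against 6.92, 8.29 and 10.09 on control 1 to 3. The controls held both the lowest and the highest of the 12 values, so every treated group lay inside the range of the controls. The gap between control 3 and control 1 was 3.17 log2 units.

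The dynein genes encode parts of the motors that move the doublets. Dnah5 (Entrez gene 110082), the heavy chain that is the motor of the outer dynein arm, read 6.90, 7.17 and 7.75 in combined lungs, 7.78, 7.50 and 8.07 in radiation lungs and 7.73, 7.30 and 7.82 in simvastatin lungs, against 6.09, 6.89 and 7.71 in control lungs. Radiation 3 was its highest array, and 2 of 3 radiation arrays stood above every control, which no radiation array did for the other 9 genes. Dnaic1 (Entrez gene 68922), an intermediate chain of the same arm, read 6.18, 5.81 and 6.85 in combined lungs, 6.20, 6.16 and 6.47 in radiation lungs and 6.49, 5.85 and 6.53 in simvastatin lungs, against 3.75, 5.30 and 6.81 in control lungs. Its value on control 1 lay below 4.84, the median of all values, which served as the filter on low values. Dnali1 (Entrez gene 75563), a light intermediate chain of the inner dynein arms, read 9.68, 9.22 and 10.19 in combined lungs, 9.51, 9.50 and 9.78 in radiation lungs and 10.35, 8.90 and 10.14 in simvastatin lungs, against 6.63, 8.57 and 10.01 in control lungs. Its highest array was simvastatin 1.

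Dynlrb2 (Entrez gene 75465) encodes a roadblock-type dynein light chain that marks ciliated cells, unlike its widely expressed relative Dynlrb1. It read 12.29, 12.04 and 12.84 in combined lungs, 12.63, 12.45 and 12.63 in radiation lungs and 12.79, 12.07 and 12.74 in simvastatin lungs, against 10.79, 11.99 and 12.76 in control lungs. Rsph1 (Entrez gene 22092), a protein of the radial spoke head, read 10.33, 9.77 and 10.86 in combined lungs, 10.41, 10.39 and 10.56 in radiation lungs and 10.69, 9.96 and 10.70 in simvastatin lungs, against 8.18, 9.60 and 10.84 in control lungs. For both genes combined 3 was the highest array and control 1 the lowest.

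The tektins Tekt1 and Tekt4 form filaments inside the doublet microtubules. Tekt1 (Entrez gene 21689) read 9.01, 8.73 and 9.58 in combined lungs, 8.97, 8.90 and 9.21 in radiation lungs and 9.58, 8.29 and 9.76 in simvastatin lungs, against 6.86, 7.93 and 9.40 in control lungs. Tekt4 (Entrez gene 71840) read 6.98, 6.69 and 7.97 in combined lungs, 7.70, 7.56 and 7.70 in radiation lungs and 7.96, 6.66 and 7.82 in simvastatin lungs, against 3.75, 6.35 and 8.21 in control lungs. Tekt4 had the widest spread of the 10 genes, 4.46 log2 units over the 12 arrays, and its value on control 1 also lay below that median of 4.84. Ccdc113 (Entrez gene 244608), a coiled-coil protein of motile cilia, read 8.06, 7.69 and 8.84 in combined lungs, 8.48, 8.45 and 8.59 in radiation lungs and 8.78, 7.47 and 8.88 in simvastatin lungs, against 5.09, 6.89 and 8.84 in control lungs. Its radiation arrays differed by 0.14, while its controls spanned most of its range.

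Tppp3 (Entrez gene 67971), a tubulin-binding protein that bundles microtubules and is also known from tendon sheath cells, was the exception in order. It read 13.14, 13.26 and 13.52 in combined lungs, 13.05, 13.22 and 13.52 in radiation lungs and 13.53, 12.98 and 13.42 in simvastatin lungs, against 12.38, 13.59 and 13.60 in control lungs. Control 2, which was the second lowest array for the other 9 genes, was the second highest for Tppp3. Its range of 1.22 log2 units was the narrowest of the 10 genes.

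**Figure D1:**
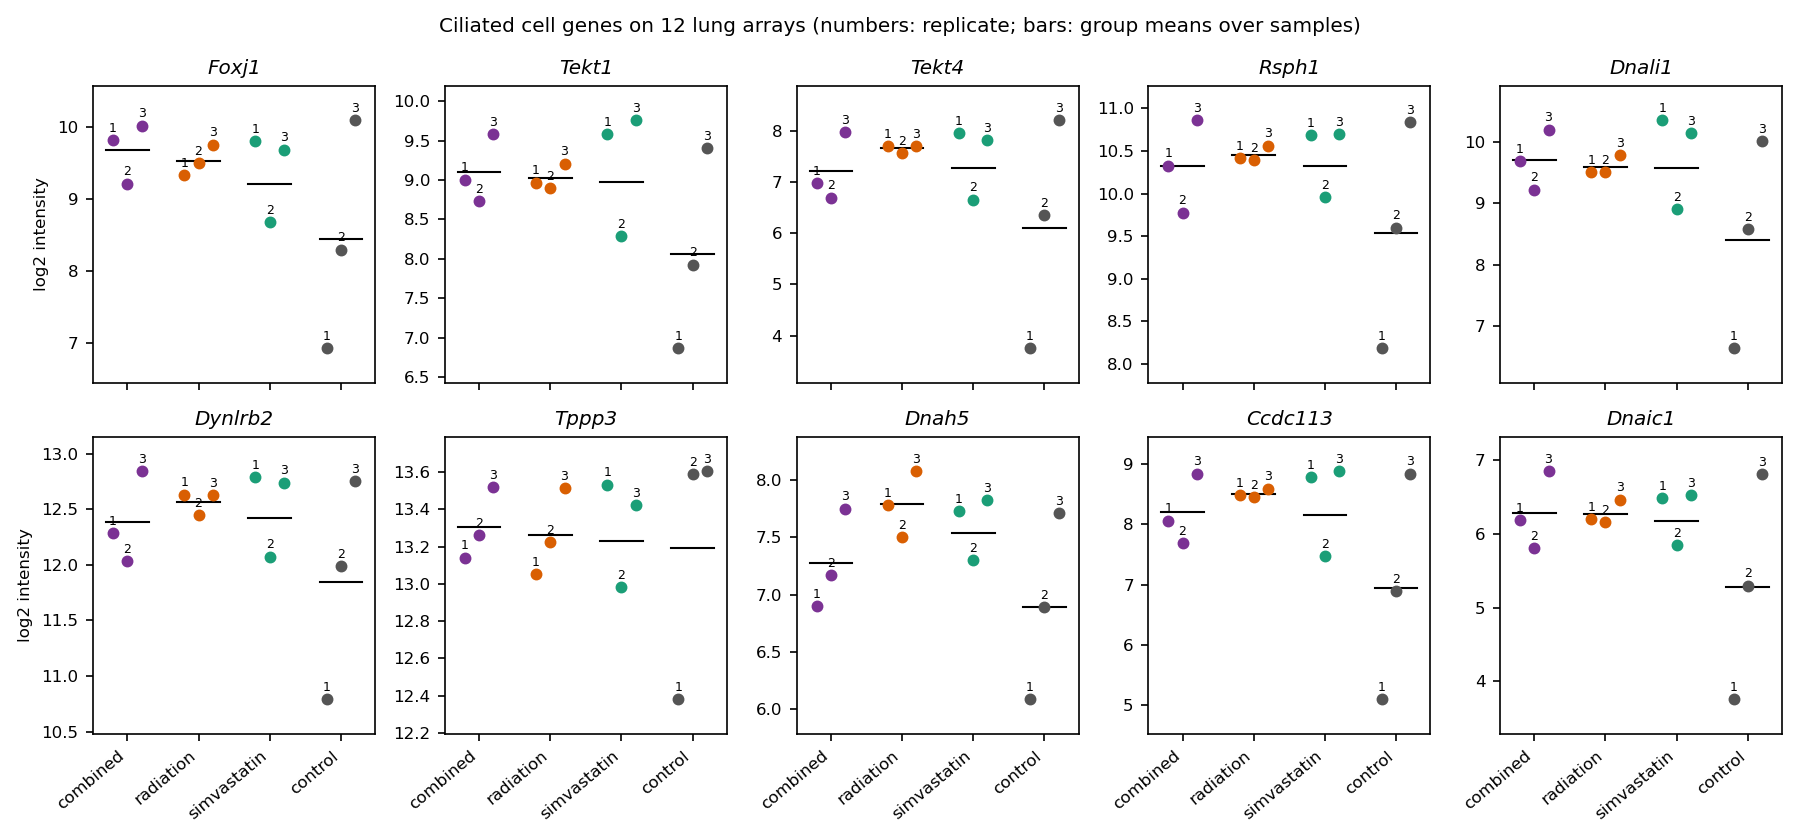
Log2 intensity (y axis, a scale of its own in each panel) of the 10 ciliated cell genes on each array, by group (x axis); numbers give the replicate and bars the group mean over samples, with simvastatin 1 and 3 averaged first. Control 1 is the lowest array in all 10 panels and control 3 lies near the top in most, while the 3 radiation arrays lie close together.

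Control 1 was the lowest array for 10 of 10 genes, and control 2 the second lowest for 9 of 10. Control 3 was among the highest 3 arrays for 7 of 10 and combined 3 for 8 of 10. Control 3 exceeded control 1 by 1.22 (Tppp3) to 4.46 (Tekt4) log2 units, with a median of 2.86 over the genes. The radiation arrays differed among themselves by 0.14 (Tekt4) to 0.57 (Dnah5). Leaving out control 1 brought the range over the other 11 arrays to between 0.62 (Tppp3) and 1.99 (Ccdc113), against 1.22 to 4.46 over all 12. The differences among the near-identical combined 3, simvastatin 1 and simvastatin 3 were at most 0.37 (Dnaic1).

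The mean of the 10 genes, each centred on its mean over the samples, was 0.11, -0.17 and 0.71 on combined 1 to 3, 0.28, 0.23 and 0.50 on radiation 1 to 3, and 0.64, -0.31 and 0.62 on simvastatin 1 to 3, against -2.08, -0.59 and 0.70 on control 1 to 3. As groups these were 0.22 ± 0.45 in combined lungs (SD, n = 3), 0.34 ± 0.14 in radiation lungs (SD, n = 3) and 0.16 ± 0.67 in simvastatin lungs (SD, n = 2), against -0.66 ± 1.39 in control lungs (SD, n = 3). Without combined 3 the combined mean was -0.03 (n = 2). The controls had the widest SD of the 4 groups and the radiation arrays the narrowest. The labelled group accounted for 1.63% (Tppp3) to 39.2% (Dnah5) of a gene's variance over 11 samples. The median of this share was 29.3% for the 10 genes and 27.2% for all genes tested. In bulk lung, fewer ciliated cells and less RNA per ciliated cell cannot be told apart. Markers of other tissues, such as squamous epithelium and skeletal muscle, also differed between arrays, as given below, and their part was not tested.

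In radiation minus control, all 10 genes lay above 0, with a median of 0.98 log2 units, where 60.3% of all genes tested lay above 0 and 39.7% below, with a median of 0.08. Ccdc113 was highest at 1.57 ± 0.79 (SE), from means of 8.51 in radiation lungs and 6.94 in control lungs. Dnah5 was at 0.89 ± 0.41, Foxj1 was at 1.09 ± 0.66 and Tppp3 was lowest at 0.07 ± 0.31. By limma with Benjamini-Hochberg adjustment over all genes, 0 of 10 passed an adjusted p of 0.05 (adjusted p = 0.7506 to 0.9466), as did 0% of all genes. At an unadjusted p under 0.05 there were also 0 of 10, against 5.17% of all genes, and Dnah5 came nearest at an unadjusted p of 0.05432 in the same limma fit. The groups overlapped for every one of the 10 genes, whereas 4.86% of all genes were higher and 2.03% lower in radiation lungs without overlap. Without control 1 the median was 0.32, with Tppp3 at -0.33 and 9 genes above 0, against 52.67% of all genes. Without control 3 the median was 1.69. With arrays weighted by their spread around the group means (array weights), 1203 of 11606 genes passed. Of the 10 genes 1 passed, Ccdc113 at 1.52 (adjusted p = 0.04351 by limma), a share near that of all genes.

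In combined minus radiation, the 10 genes divided evenly, 5 above and 5 below 0, with a median of -0.06, where 37.4% of all genes lay above 0 and 62.6% below, with a median of -0.09. Dnah5 was lowest at -0.51 ± 0.41, from 7.27 in combined lungs and 7.79 in radiation lungs, and Foxj1 was highest at 0.16 ± 0.66. By limma 0 of 10 passed (adjusted p = 0.8354 to 0.9987), 0% of all genes passed, and 0 of 10 had an unadjusted p under 0.05, against 4.46% of all genes. No gene was without overlap in either direction, against 3.7% of all genes higher and 13.5% lower in combined lungs. Without combined 3, which is near-identical to 2 simvastatin arrays, 0 of 10 lay above 0, against 37.39% of all genes, and the median was -0.34. Without combined 2 the median was 0.10 with 6 above 0, against 39.21% of all genes. Without radiation 3 it was 0.0095, and with arrays centred on their medians it was 0.0020. The sign of this median thus turned with the setting. With array weights 1173 genes passed and none of the 10 was among them.

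In simvastatin minus control, all 10 genes lay above 0 with a median of 0.84, against 49.6% of all genes above 0 and 50.4% below, with a median of -0.0023. Ccdc113 was again highest at 1.21 ± 0.88, followed by Tekt4 at 1.17 ± 1.03 and Dnali1 at 1.17 ± 0.80, and Tppp3 was lowest at 0.04 ± 0.35. By limma 0 of 10 passed (adjusted p = 0.9897 to 0.9956), 0% of all genes passed, and 0 of 10 had an unadjusted p under 0.05, against 1.84% of all genes. The groups overlapped for all 10 genes, against 3.36% of all genes higher and 7.96% lower without overlap. This comparison uses the same 3 controls as radiation minus control, so the 2 are not independent. Without control 1 the median was 0.12 with 8 above 0, against 37.61% of all genes. Without control 3 the median was 1.59, and without simvastatin 1 and 3 it was 0.41. Without control 3, combined 3 and simvastatin 2 together, the arrays whose Cdkn1a goes against the label, it was 2.06.

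In combined minus control, which shares those controls too, all 10 genes lay above 0 with a median of 1.02, against 50.5% of all genes above 0 and 49.5% below. Dnali1 was highest at 1.29 ± 0.72, followed by Ccdc113 at 1.26 ± 0.79 and Foxj1 at 1.25 ± 0.66. By limma 0 of 10 passed (adjusted p = 0.9949 for each), 0% of all genes passed, and 0 of 10 had an unadjusted p under 0.05, against 2.82% of all genes. All 10 genes overlapped between the groups, against 2.67% of all genes higher and 3.87% lower without overlap. The median was 0.16 without control 1, with 7 above 0 against 40.79% of all genes. It was 1.73 without control 3 and 0.72 without combined 3. With array weights 43 genes passed and none of the 10 was among them.

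The interaction, the radiation difference in simvastatin-treated lungs minus that in lungs without the drug, lay below 0 for 9 of 10 genes, with a median of -0.90, where 57.3% of all genes lay below 0 and 42.7% above. Tekt4 was lowest at -1.61 ± 1.38, Ccdc113 stood at -1.52 ± 1.19 and Dnah5 at -1.15 ± 0.61, and Tppp3 was at 0.01 ± 0.47. By limma 0 of 10 passed (adjusted p = 0.8816 to 0.9988), 0% of all genes passed, and 0 of 10 had an unadjusted p under 0.05, against 3.25% of all genes. The median was -0.23 without control 1, -0.48 without simvastatin 1 and 3, -1.57 without control 3, -1.18 without combined 3 and -2.23 without the 3 arrays whose Cdkn1a goes against the label.

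**Figure D2:**
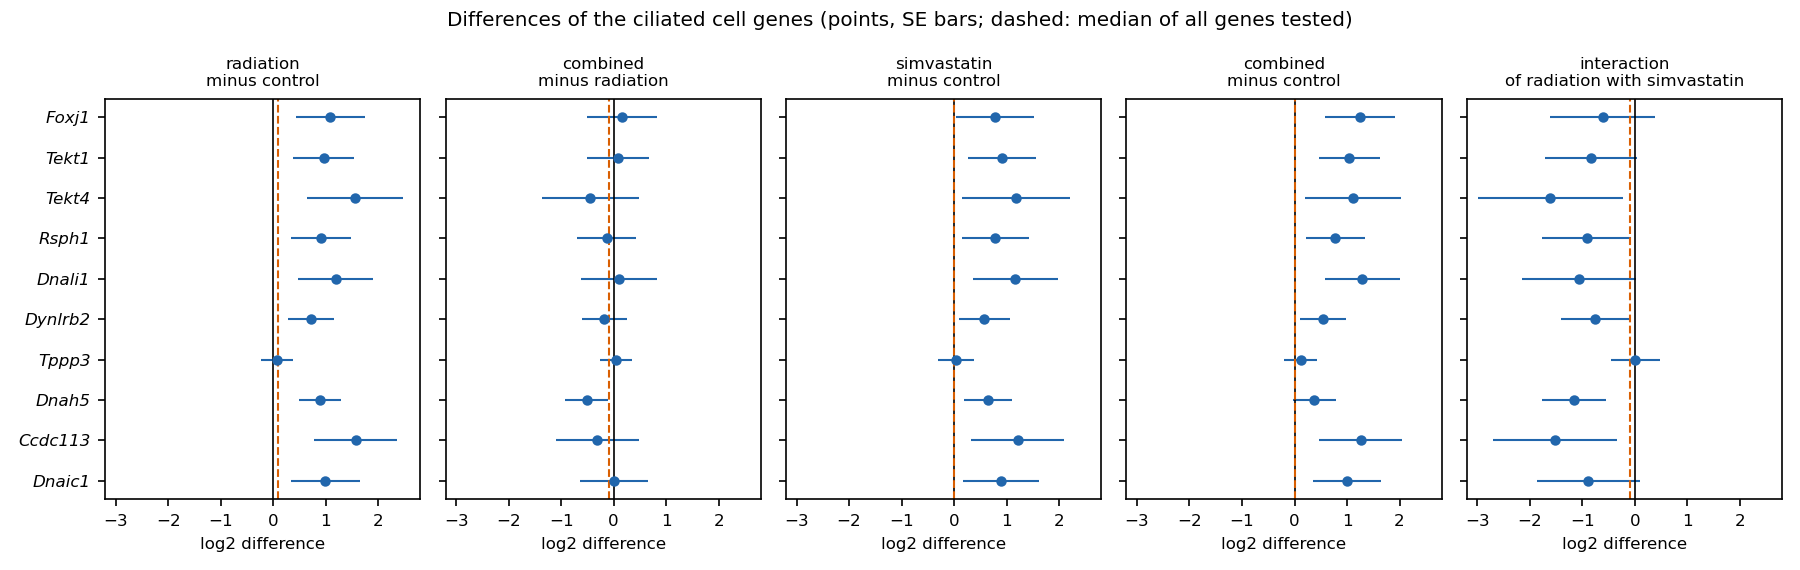
Log2 difference (x axis) of each ciliated cell gene in the 5 comparisons, with bars of 1 SE from the limma fit; the dashed line is the median of all genes tested. In the 3 comparisons with control all 10 points lie right of 0 and most bars are long, while in combined minus radiation the points lie on both sides of 0.

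The 10 genes varied together across arrays. They were selected after an earlier look at these arrays had shown this, so the correlations are a description. Over the 45 pairs the median Pearson correlation over 11 samples was 0.97, from 0.70 (Tppp3 with Dnah5) to 0.99 (Rsph1 with Dnaic1). All pairs share the same arrays, among them control 1 and control 2, the 2 samples farthest from the median. Without both, the pairs had a median of 0.84 and a range of 0.35 (Foxj1 with Dnah5) to 0.99 (Tekt1 with Dnali1). Without combined 3 alone the median over the pairs was 0.96, from 0.68 to 0.99. Set against the mean of the other 9 genes, Tekt4 had a slope of 1.62 and Ccdc113 of 1.45, Foxj1 of 1.13 and Tekt1 of 0.98, while Dynlrb2 had 0.69, Dnah5 0.61 and Tppp3 0.32. The second probe sets of Dnali1 and Dnaic1, which were not used above, had their lowest array in control 1 as well and correlated with the probe sets used at 0.98 and 0.96 over 12 arrays.

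Other cilia genes, in 6 lists by structure or role, were low on the same arrays: 5 of the 6 lists had control 1 lowest and control 2 next, and the regulators of multiciliogenesis did not. Of 148 listed genes, 136 were on the array and 120 were tested. In radiation minus control 111 of 120 lay above 0 with a median of 0.83, against 60.3% of all genes and a median of 0.08. By limma 0 passed, with 14 (11.7%) at an unadjusted p under 0.05, against 5.17% of all genes. Counts above 0 among the 120 were 33 in combined minus radiation, 107 in simvastatin minus control, 101 in combined minus control and 12 in the interaction. The shares of all genes above 0 were 37.4%, 49.6%, 50.5% and 42.7% in that order. By limma 0 of the 120 passed in each, with 0, 3 (2.5%), 7 (5.83%) and 0 at an unadjusted p under 0.05. Of all genes 4.46%, 1.84%, 2.82% and 3.25% had such an unadjusted p. With array weights 43 of 120 passed in radiation minus control and 2 in combined minus radiation, and without control 3, combined 3 and simvastatin 2 there was 1 in radiation minus control. Of all 11606 genes, array weights passed 1203 in radiation minus control and 1173 in combined minus radiation. Without combined 3 the counts of the 120 above 0 were 16 in combined minus radiation, 96 in combined minus control and 9 in the interaction. Of all genes 37.39%, 50.03% and 42.15% lay above 0 there. In radiation minus control without control 1, 100 of 120 lay above 0 with a median of 0.30, against 52.67% of all genes.

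The 20 tested genes of dynein arms and their assembly had a median of 1.07 in radiation minus control, with 19 above 0. Of all genes tested 60.3% lay above 0 in this comparison. The inner arm heavy chain Dnah7a was highest at 2.43 ± 0.96, from 6.53 in radiation lungs and 4.10 in control lungs. That control mean lay below the filter's level of 4.84, so the size of the difference is uncertain. The assembly factor Zmynd10 stood at 1.57 ± 0.83. Lowest were the assembly factor Spag1 at 0.13 ± 0.29 and Dnah8, a heavy chain best known from sperm, at -1.09 ± 0.41. All 17 tested genes of radial spokes, central pair and nexin links lay above 0, with a median of 1.16, from Spag17 at 0.60 ± 0.46 and Spef1 at 0.64 ± 0.45, both of the central pair, to Spag6l at 1.63 ± 0.68 and the nexin link gene Iqcg at 1.82 ± 0.80. Of 16 doublet microtubule genes 14 lay above 0 with a median of 1.06. Cfap53 was at 1.52 ± 0.73 and Cfap45 at 1.43 ± 0.67, and Cfap20 at -0.05 ± 0.22 and Mns1 at -0.12 ± 0.71 were the lowest. None of these genes passed the test in the unweighted fit to 11 samples.

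The remaining lists reach beyond the structure of the motile axoneme. The 34 tested genes of intraflagellar transport and the BBSome also serve the primary cilia of other cells. In radiation minus control their median was 0.39 with 31 above 0, against 60.3% of all genes tested. Bbs5 was highest at 1.22 ± 0.46 and Bbs1 next at 1.02 ± 0.50, and Ift80 at -0.19 ± 0.30 and Bbip1 at -0.55 ± 0.36 were lowest. The 27 tested genes of other airway ciliated cell markers had a median of 0.93 with 26 above 0, led by the kinase Stk33 at 2.07 ± 1.04 and Cfap299 at 1.52 ± 0.63, with the tubulins Tuba1a at 0.09 ± 0.13 and Tubb4b at -0.07 ± 0.18 lowest. Only 6 of 13 regulators of multiciliogenesis were tested, with a median of 0.21, from Myb at -1.22 ± 0.89 and Rfx1 at -0.05 ± 0.31 to Rfx3 at 0.40 ± 0.28 and the deuterosome gene Deup1 at 0.63 ± 0.62. Myb, which is also a gene of immature blood cells and thymocytes, read 13.14 on control 1 against 8.61 to 9.88 on the other arrays.

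Paralogues that are not particular to cilia were measured beside the 10 genes. Dynlrb1, the ubiquitous paralogue of Dynlrb2, was at 0.03 ± 0.18 in radiation minus control and read 12.69 on control 1, within its range elsewhere of 12.32 to 12.98. The forkhead factors Foxj2 and Foxj3 were at 0.12 ± 0.26 and -0.07 ± 0.22, against 1.09 ± 0.66 for Foxj1. Tppp, a brain relative of Tppp3, was at 0.35 ± 0.23. Control 1 was the lowest array for Foxj2 at 9.25 and for Tppp at 8.35, and not for Foxj3 at 10.77. The mean of the 4 relatives was lowest on control 1 as well, at -0.30, against -2.08 for the 10 genes. Their r with the mean of the 10 genes was 0.80 for Foxj2, 0.68 for Tppp, 0.49 for Foxj3 and -0.36 for Dynlrb1. None of the 4 passed the test in the fit to 11 samples, and the difference between relatives was not tested.

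Likeness to the mean of the 10 genes was measured by Pearson's r over 11 samples as a description. The 10 genes and the cilia lists were chosen with earlier results of these data known. Of the 120 other cilia genes tested the median r was 0.93, against 0.22 for all other genes, and 74 of 120 (61.7%) had r over 0.9, against 4.22% of all other genes. Without control 1 and control 2 the medians were 0.82 and 0.15, and without combined 3 they were 0.94 and 0.26, with 72 of 120 over 0.9. Of the 50 most alike genes 20 were in the cilia lists, which make up 1.03% of the genes ranked, with 10 without those 2 controls and 19 without combined 3. The 10 most alike were Fam47e, Cfap126, Ccdc40, Cfap70, Ccdc151, Fam183b, Cfap54, Calml4, Spaca9 and Rsph9, with r of 0.988 to 0.993, and 5 of them were in the lists, such as Ccdc40, which sets the spacing of spokes and inner arms, and the radial spoke head gene Rsph9. Fam47e, which was not, read 8.52, 8.46 and 9.35 in combined lungs, 9.08, 8.98 and 9.09 in radiation lungs and 9.44, 8.25 and 9.25 in simvastatin lungs, against 5.62, 7.68 and 9.58 in control lungs. It thus repeated the order of the ciliated cell genes, with control 1 and control 2 lowest and control 3 highest, as for Foxj1 and Tekt4. Dnah8, Mns1, Myb, Ift25, Ift52, Ift80, Kif3b, Bbip1 and Wdr78 were the 9 listed cilia genes with r below 0.

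**Figure D3:**
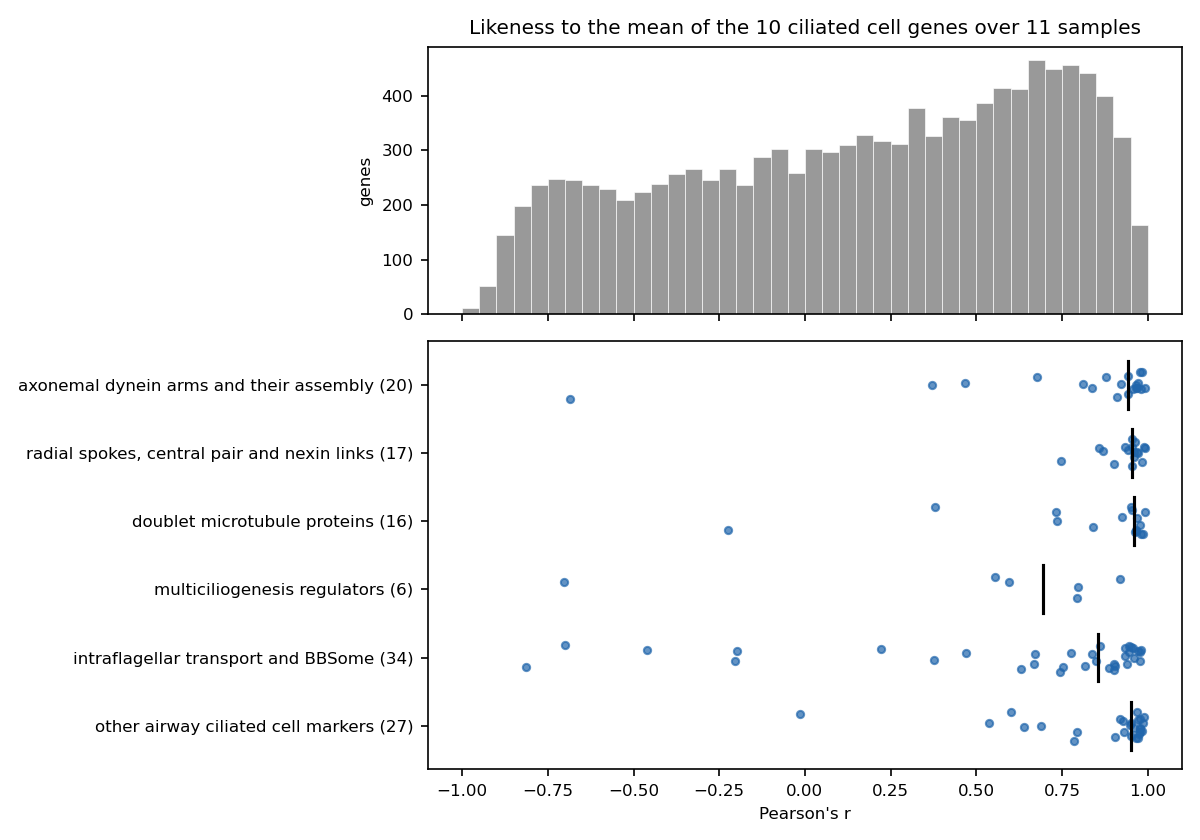
Pearson's r with the mean of the 10 ciliated cell genes over 11 samples (x axis), as a histogram of all other genes tested (top, y axis in genes) and as 1 point a gene for the 6 cilia lists (bottom, tested genes in brackets, bar at the median). Structural genes of the axoneme gather near 1, and intraflagellar transport genes and multiciliogenesis regulators spread further to the left.

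Markers of other cell types on the same arrays give the setting of these values, each as a list's mean relative to the samples, and their part in the result was not tested. On control 1, where the ciliated cell genes averaged -2.08, alveolar type 1 markers (9 of 9 tested) stood at -0.92, endothelial markers (8 of 8) at -0.88, alveolar type 2 markers (8 of 9) at -0.81 and club and secretory airway markers (12 of 12) at -0.51. Those lung lists were thus all low there, with the ciliated list lowest. Beside the thymocyte genes, other lists were high on control 1. Squamous epithelium genes stood at 5.95, adipose genes at 3.87, skeletal muscle genes at 2.89 and airway basal markers at 2.8. Smooth muscle genes at -0.19 and cartilage genes at 0.25 lay nearer the mean of the samples. On control 2, where the ciliated genes averaged -0.59, club and secretory markers were also low at -0.61, while alveolar type 2 markers at 0.35, alveolar type 1 markers at 0.20 and endothelial markers at 0.60 were high. Simvastatin 2 had the same pairing, with ciliated genes at -0.31, club and secretory markers at -0.64 and endothelial markers at 0.38.

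Over the groups the club and secretory list ranged from -0.16 to 0.72 in combined lungs, -0.10 to 0.21 in radiation lungs and -0.64 to 0.77 in simvastatin lungs, against -0.61 to 0.41 in control lungs. Scgb1a1, the secretoglobin that defines club cells, read 15.8 to 16.2 on every array, near the highest value of the whole table, 16.27. Squamous epithelium genes (6 of 8 tested), which belong to lining such as that of the oesophagus, ran from -4.0 to 6.31 in combined lungs, -4.05 to 2.83 in radiation lungs and -4.06 to -4.0 in simvastatin lungs, against -2.41 to 6.07 in control lungs. Their keratin Krt4 read 13.77, 15.50 and 2.77 in combined lungs, 13.05, 3.07 and 2.75 in radiation lungs and 2.8, 2.70 and 2.83 in simvastatin lungs, against 15.19, 15.18 and 8.17 in control lungs. Krt4 was high on control 1 and control 2, where ciliated genes were low, and on combined 2, where they averaged -0.17. It was also high on combined 1 and radiation 1, where they averaged 0.11 and 0.28. It was low on simvastatin 2, where they averaged -0.31. The squamous epithelium genes had a median r of -0.68 with the mean of the ciliated cell genes. Without control 1 and control 2 this median was -0.48. The part of squamous tissue in the ciliated values was not tested. Airway basal cell markers (6 of 8) ran from -1.92 to 2.99 in combined lungs, -2.50 to 0.53 in radiation lungs and -2.39 to -1.90 in simvastatin lungs, against -1.05 to 2.8 in control lungs, and Krt5 and its relatives in that list belong to squamous epithelium as well. Skeletal muscle genes (7 of 8) ran from -3.87 to 3.52 in combined lungs, -4.12 to 2.45 in radiation lungs and -4.49 to -3.78 in simvastatin lungs, against 1.0 to 2.89 in control lungs. Smooth muscle genes (8 of 8) lay between -0.74 and 0.72, adipose genes (4 of 8) between -3.59 and 3.87, and 2 of 12 cartilage genes and 0 of 5 neuroendocrine genes were tested.

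**Figure D4:**
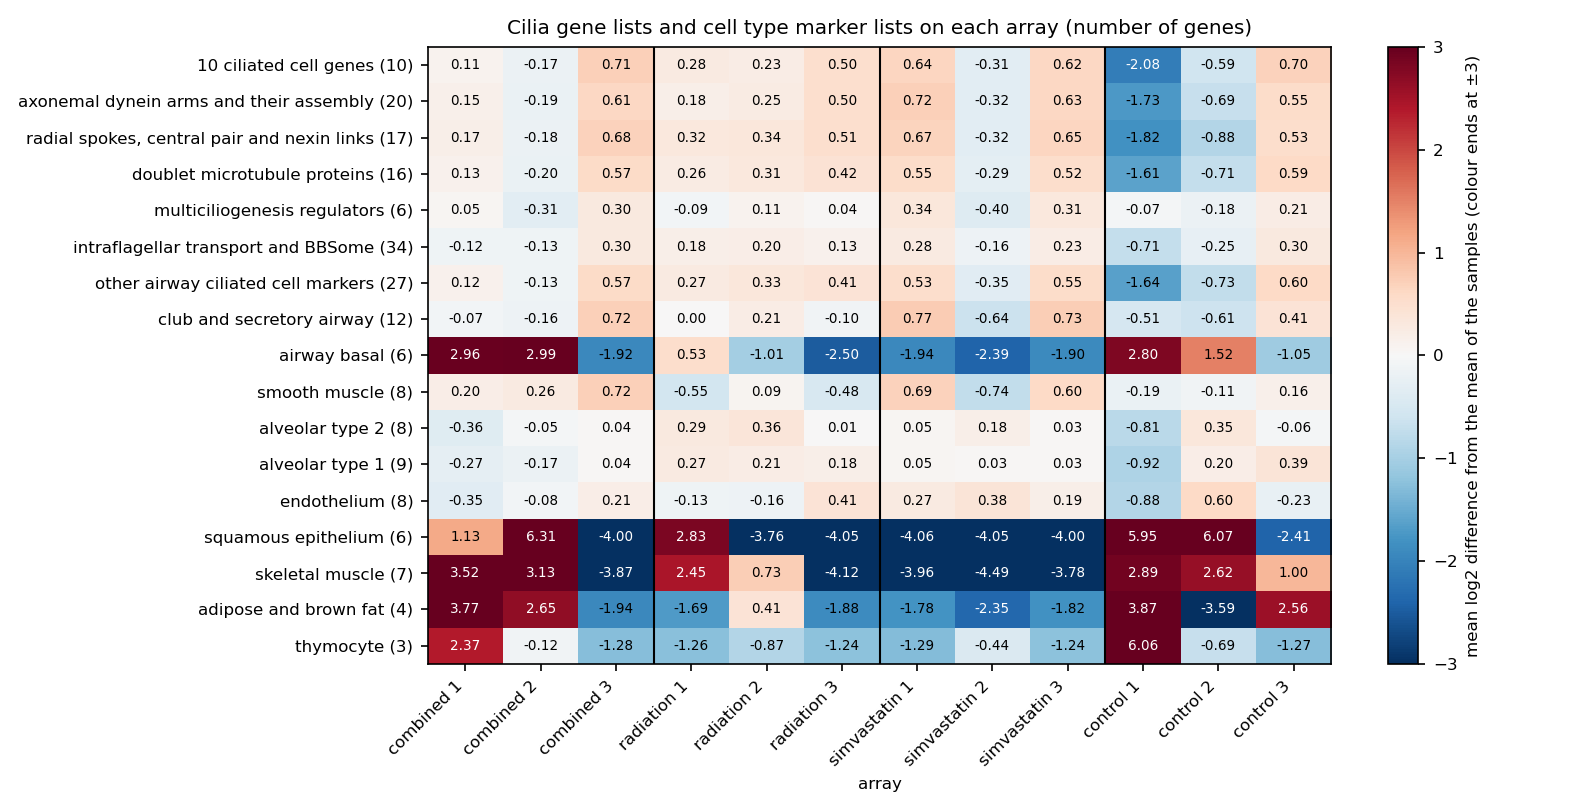
Mean log2 difference from the mean of the samples (colour and number) for the ciliated cell genes, 6 lists of other cilia genes and 10 lists of cell type markers (rows, number of tested genes in brackets) on each of 12 arrays (columns, by group). The ciliated genes and the axonemal lists share their low cells on control 1 and control 2, and squamous epithelium genes are high on those arrays, on combined 1 and 2 and on radiation 1.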

How the data were processed

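Lung RNA of 12 samples in 4 labelled groups was measured on Affymetrix arrays. The values are log2 intensities deposited by the authors, and the submitters' processing notes name MAS5 and GCRMA, with versions and roles not given in the sources used here. Precision is limited by the number of arrays. Of 45101 probe sets, 64 were controls, 34945 had 1 gene symbol by GEO's platform annotation, 932 had several and 9160 had none. Only those with 1 symbol were used, with symbols updated through RefSeq (GRCm38.p6). A probe set was kept when above the median of all values (4.84) on at least 3 arrays, and each gene was read from its probe set of highest mean. A mean per group was fitted to 11 samples by lmFit and eBayes with a trend (limma 3.58.1, R 4.3.3), which left 7 residual degrees of freedom. P-values are two-sided and adjusted by Benjamini and Hochberg over 11606 genes in each comparison, with a threshold of 0.05. On simulated data for radiation minus control, with 11606 genes, 83% of genes changed by 2 log2 units and 97% of those changed by 4 were recovered. The simulation drew independent residuals with the same SD in every group for a gene. For the 10 genes control lungs spread more than radiation lungs, as for Tekt4 with SDs of 2.24 and 0.08. The recovered shares hold for genes drawn from all those tested and not for these 10, whose SEs were 0.31 to 0.92.

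The 10 genes and all lists were chosen with earlier results of these data known. Named by rule were the 10 genes, the 2 largest and 2 smallest differences of each cilia list in radiation minus control, 4 relatives of the 10 genes, the 10 most alike genes, and the gene with the highest mean of each cell type list, of which those the text turns on are given. Cut-offs on r, the number of most alike genes counted, older symbols for 10 listed genes, the motifs, the counts above 0 under each alternative and the values without combined 3 in the mean, correlations and likeness were chosen after seeing the data. Tekt4, Dnaic1, Dnah7a, Zmynd10, Cfap53, Spag17, Stk33 and Deup1 lay below the filter's level on control 1, so their differences from control are less certain. Among the most alike genes Ccdc151 at 2.64 and Cfap70 at 4.81 lay below it there too, so their r is less certain.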

Additional observations from a re-analysis of the deposited data

How the results depend on the processing

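None of the 10 genes passed the threshold under any setting tried except Ccdc113 in radiation minus control with array weights (1.52, 1 gene past the threshold). Over all genes array weights gave 1203 in radiation minus control, 1173 in combined minus radiation and 43 in combined minus control, against 0 in each; the cause was not tested. Without control 3, combined 3 and simvastatin 2 there were 9 genes in radiation minus control and 2 in combined minus control, the member median was 2.06 in simvastatin minus control and -2.23 in the interaction, 0 members and 16 other cilia genes lay above 0 in combined minus radiation, and 0 and 6 did in the interaction. In that setting, combined minus radiation was -0.011 for Foxj1, -0.15 for Tekt1, -0.15 for Dnali1, -0.063 for Tppp3 and -0.28 for Dnaic1, and the Tppp3 interaction was -0.55. Combined minus radiation also turned for Dnaic1 with quantile normalization (-0.32), with averaged probe sets (-0.18) and with array weights (-0.11). It turned for Dnali1 with averaged probe sets (-0.062) and for Tekt1 with array weights (-0.0096). In this comparison 3 members lay above 0 with averaged probe sets and 3 with array weights, against 38.11% and 37.6% of all genes. Tppp3 with array weights was -0.39 in radiation minus control, -0.31 in simvastatin minus control and -0.30 in combined minus control.

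Of 18 correlations of same-numbered samples 8 were over 0.1, from -0.26 to 0.41. All 3 between combined and control were over 0.1 (0.29 to 0.41), and no other pair of groups had all 3 over it. A fit with the replicate number as a block, over 12 arrays, called 0 genes in each comparison, so it changed no call. It gave a Tppp3 interaction of -0.077 with 0 members above 0, as did 12 arrays without the block (-0.077, 0 members). In both fits 41.69% of all genes lay above 0 in the interaction.

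Leaving out 1 replicate at a time moved the member median in combined minus control between 0.16 and 1.73, and genes past the threshold between 0 and 1 in radiation minus control, combined minus control and the interaction. Members above 0 lay between 0 and 6 in combined minus radiation and between 0 and 2 in the interaction. Other cilia genes above 0 lay between 16 and 58 and between 6 and 28. The shares of all genes above 0 lay between 37.39% and 39.21% and between 38.68% and 47.35%. Tppp3 ranged from -0.33 to 0.28 in radiation minus control, -0.37 to 0.29 in simvastatin minus control, -0.29 to 0.32 in combined minus control, -0.063 to 0.17 in combined minus radiation and -0.24 to 0.41 in the interaction. Tekt4 ranged from -0.0042 to 2.22 in simvastatin minus control and -0.063 to 2.17 in combined minus control, Dnah5 from -0.029 to 0.78 in combined minus control, and Foxj1 from -1.44 to 0.14 in the interaction. In combined minus radiation Foxj1 ranged from -0.011 to 0.39, Tekt1 from -0.15 to 0.27, Rsph1 from -0.40 to 0.14, Dnali1 from -0.15 to 0.34 and Dnaic1 from -0.28 to 0.24.

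In radiation minus control the member median stayed above 0 under every alternative run, from 0.32 without control 1 to 1.69 without control 3. Signals below the filter's level limit Tekt4, Dnaic1, Dnah7a, Zmynd10, Cfap53, Spag17, Stk33 and Deup1 on control 1, and Dnah7a on control 2. They also limit Ccdc151 and Cfap70 on control 1, and Dnah7a and Deup1 on simvastatin 2.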
